A study of Mus musculus with 8 samples.

Results

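From the prefrontal cortex data, 10 gene symbols were chosen because all 4 libraries of one arm of the experiment lay apart from all 4 libraries of the other arm. They were Wdfy1, Nnt, Rnps1, Rps2, Rps18, H2-T10, H2-Q10, C4a, Gm11127 and Gm6034, which is 10 of 23393 measured symbols. All 10 were among the 17415 genes that passed the filter on low counts. Gm11127, Gm6034 and H2-Q10 had 0, 0 and 1 libraries of the lower arm above that filter, so they entered the tested genes through the arm in which they were high. The genes were selected on their own CPM in all 8 libraries, so the difference between the arms is described here and not tested.

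The study measured RNA by sequencing in the prefrontal cortex of C57BL6/J mice aged 6 to 8 weeks that had been injected with adeno-associated virus of serotype 9 (AAV9). The first arm, called the Adnp set, holds 2 libraries from mice given a virus for green fluorescent protein (GFP) and 2 from mice given a hairpin virus that the titles assign to Adnp (shAdnp). The second arm, the Pogz set, holds its own 2 GFP libraries and 2 libraries that the titles assign to a Pogz hairpin (shPogz). The treatment label of both hairpin groups names ASH1L instead, and the groups follow the titles. Every mouse in every group carried AAV9, and none was free of virus. The cells in which the viral cargo was active, the promoters that drove it and the share of cells it reached were not found in the labels. No label ties a set to a litter, date or batch, so anything else that differed between the sets cannot be told apart from the set. The RNA came from whole tissue, so fewer cells of a type and less RNA per cell cannot be told apart.

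Depth, as counts summed over named genes, was 55641435 to 65104567 in the Adnp set and 27501722 to 69002749 in the Pogz set. One library, shAdnp replicate 1, held 7.62% of its counts in Rn45s, and the other libraries held 0.134% to 0.740%. Markers of excitatory cortical neurons were abundant in every library, the summed level of 5 of them lying between 1759 and 3154 CPM (counts scaled for library size with edgeR's TMM factors). In its own set the Adnp transcript had 137 and 111 CPM with GFP and 87.2 and 118 CPM with the hairpin, which overlapped. The Pogz transcript had 54.4 and 53.1 CPM with GFP and 49.0 and 37.3 CPM with the hairpin. Neither targeted gene passed edgeR's quasi-likelihood test in its set (adjusted p = 0.768 for Adnp and 0.667 for Pogz), so the groups are named as the labels name them.

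The 10 genes fall into different pathways. WDFY1 is an endosomal protein that binds the lipid phosphatidylinositol 3-phosphate through a FYVE domain and recruits an adaptor to Toll-like receptors of endosomes. NNT is an enzyme of the inner mitochondrial membrane that uses the proton gradient to make NADPH, which keeps glutathione reduced. RNPS1 is an RNA-binding protein that sits beside the exon junction complex on spliced mRNA, and RPS2 and RPS18 are proteins of the small ribosomal subunit. H2-T10, H2-Q10, Gm11127 and Gm6034 belong to or lie within the class I region of the mouse major histocompatibility complex. Class I heavy chains pair with beta-2 microglobulin to show peptides to T cells, and the Q and T series are the less variable relatives of the classical H2-K1 and H2-D1. C4a lies in the same complex and is the close copy of C4b, which encodes complement component C4. In the brain, class I and complement transcripts are made by microglia, endothelium and astrocytes among other cells, and they respond to interferon.

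All 10 genes met the choosing rule when it was applied again, 7 higher (2.34% of all genes were) and 3 lower (3.7%) in the Pogz set. By the same rule 1052 genes, or 6.04% of those tested, were apart, 407 of them higher and 645 lower in the Pogz set. That count was 1703 without shAdnp replicate 1, 2570 without shAdnp replicate 2, 1998 without Pogz-set GFP replicate 1 and 1699 without Pogz-set GFP replicate 2. It was 1497 and 1325 without Adnp-set GFP replicates 1 and 2, and 1370 and 1470 without shPogz replicates 1 and 2. All of these exceed 1052, so counts below with a library left out are not to be read against 6.04%. The split of the 1052 between directions also moved with scaling. It was 547 higher and 454 lower with upper quartile scaling and 1235 higher and 128 lower with library totals alone. The width of the separation was measured as the gap, the lowest log2(CPM + 0.5) of the higher set minus the highest of the lower set. The widest gap of all tested genes was that of Gm11127, 2.51, and the narrowest of the 10 was that of Nnt, 0.40. A gap at least as wide as that of Nnt was found in 33 genes (0.189%), the 10 and 23 others. Just outside lay Hapln4, a perineuronal net gene, whose gap of 0.3989 stood against 0.4012 for Nnt. These figures describe how the genes were chosen and support nothing further.

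**Figure D1:**
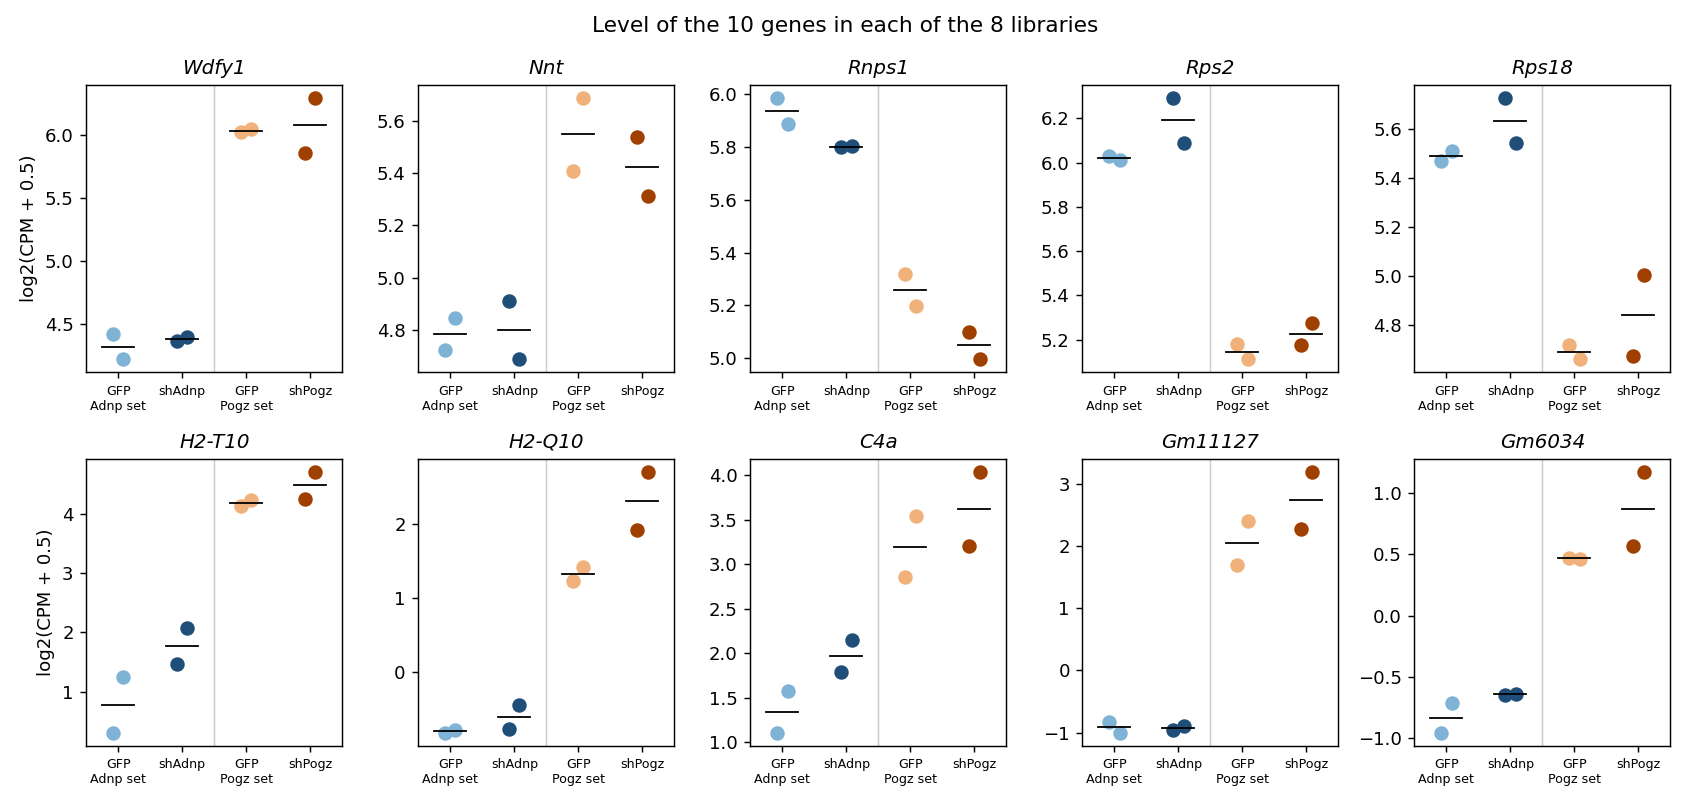
Level of each of the 10 genes as log2(CPM + 0.5) on a vertical axis of its own, with 1 point per library, the 4 groups from left to right and a black line at each group's mean. In each panel the 4 libraries left of the grey line do not overlap the 4 on its right; the 3 panels that step down are Rnps1, Rps2 and Rps18.

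**Figure D2:**
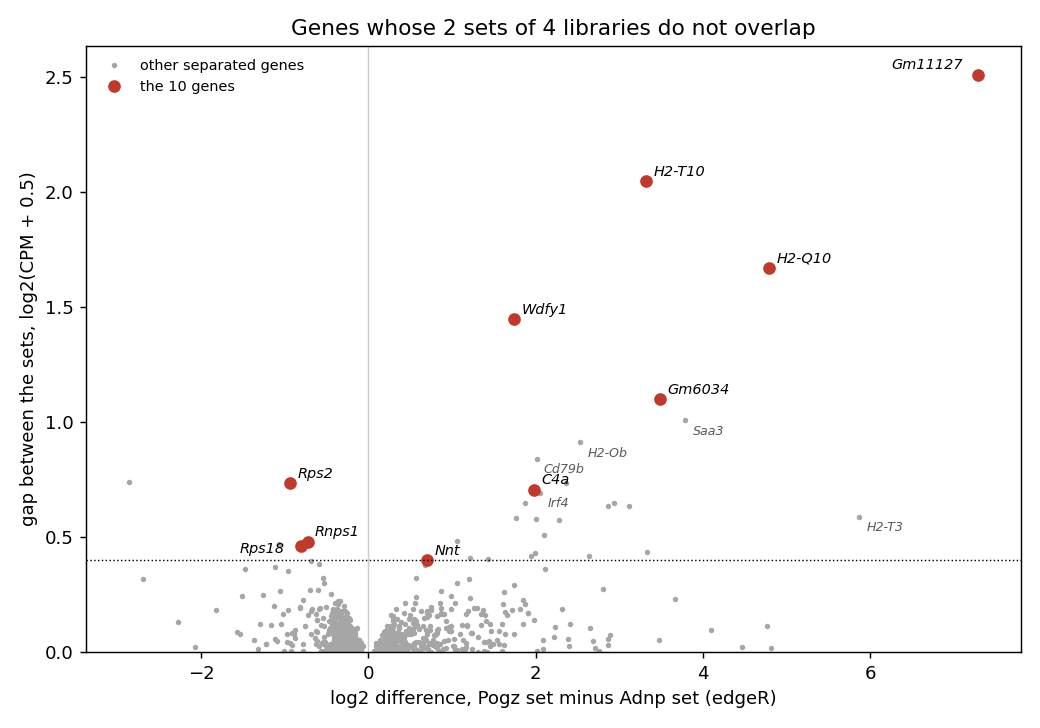
Gap between the sets, in log2(CPM + 0.5), against the log2 difference fitted by edgeR, for every gene whose sets did not overlap, with the 10 genes in red. The dotted line marks the gap of Nnt, 0.40, above which 33 genes lie; most other separated genes lie close to the horizontal axis.

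Wdfy1 (chromosome 1, 79702262 to 79776143, minus strand, GRCm38.p6) was at 20.8 and 18.1 CPM in GFP mice of the Adnp set and 20.03 and 20.5 CPM in shAdnp mice. It was at 64.7 and 65.6 CPM in GFP mice of the Pogz set and 57.6 and 78.1 CPM in shPogz mice. The level was thus flat within the Adnp set and 3.35-fold higher, as a ratio of means, in the Pogz set (19.9 ± 1.22 against 66.5 ± 8.49 CPM; SD, n = 4 each). Fitted across all genes, the difference was 1.74 on the log2 scale (SE 0.11). The difference was alike between the GFP controls (1.74, SE 0.15) and between the hairpin groups (1.74, SE 0.15). Counts behind these levels ran from 1138 to 4613 per library.

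Genes that share a pathway with Wdfy1 were counted from a list of 20 other FYVE or endosomal lipid-binding proteins. By the same rule, 4 of the 20 were apart (6.04% of all genes were), Zfyve26, Ankfy1 and Zfyve16 higher and Zfyve27 lower, and the median difference was near 0 (log2, -0.00; all tested genes, -0.00). Zfyve26, whose product partners with spatacsin at lysosomes, differed by 0.33 (SE 0.09; edgeR adjusted p = 0.345), and the endosomal protein gene Ankfy1 by 0.26 (SE 0.08; adjusted p = 0.369). Of 20 other genes around Toll-like receptors 3 and 4, 0 were apart, and their median was 0.20. Without either shAdnp library or without Pogz-set GFP replicate 1, 2 of these were apart, and without Pogz-set GFP replicate 2, 1 was. The smallest p among them belonged to the kinase gene Ikbke (0.89, SE 0.25; edgeR adjusted p = 0.367). Tlr3, the endosomal receptor for double-stranded RNA, ranged from 9.30 to 14.4 CPM in the Adnp set and from 11.9 to 21.8 CPM in the Pogz set, which overlapped. In these lists 0 genes passed edgeR's test between the sets over all genes, 3 and 4 had an unadjusted p under 0.05 (11.7% of all genes had), and DESeq2 called 0 and 1 (1.53% of all genes).

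Nnt (chromosome 13, 119335527 to 119409257, minus strand) was at 25.9 and 28.3 CPM in GFP mice of the Adnp set and 29.6 and 25.3 CPM in shAdnp mice. In the Pogz set it was at 42.0 and 51.0 CPM in the GFP mice and 45.9 and 39.2 CPM in shPogz mice. The highest Adnp-set value and the lowest Pogz-set value were therefore 29.6 and 39.2 CPM. The set means were 27.3 ± 1.99 and 44.5 ± 5.11 CPM (SD, n = 4 each), a ratio of 1.63, and the fitted difference was 0.71 on the log2 scale (SE 0.10). The difference was 0.78 (SE 0.14) between the GFP controls and 0.63 (SE 0.14) between the hairpin groups.

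Of 18 other genes for mitochondrial NADPH and peroxide handling, 1 was apart (6.04% of all genes were). It was the glutathione reductase gene Gsr, with a gap of 0.0051. The count was 4 without Adnp-set GFP replicate 2, 3 without shAdnp replicate 1 or Pogz-set GFP replicate 2, and 2 without replicate 1 of either GFP group or of shPogz. Gsr ranged from 34.9 to 40.6 CPM in the Adnp set and from 40.7 to 45.8 CPM in the Pogz set. The median difference of the 18 was 0.02, and the member with the smallest p was Prdx3, a mitochondrial peroxidase gene (0.21, SE 0.09; edgeR adjusted p = 0.424). The largest difference in the list was that of Mthfd2, a mitochondrial folate enzyme gene (0.64, SE 0.27; edgeR adjusted p = 0.427), whose sets overlapped.

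Nnt and Wdfy1 are known to differ between C57BL/6 substrains, and C57BL/6J mice are known for a deletion within Nnt. The labels give 1 strain, C57BL6/J, for all 8 mice, and a count per gene shows neither an exon nor a genotype, so the part of a substrain in these levels was not tested. A list of 9 other genes known to differ among C57BL/6 substrains was read beside them. None of the 9 was apart between the sets (0 of 9, against 6.04% of all genes), with 4 above 0 and 5 below. Without Adnp-set GFP replicate 1 or shAdnp replicate 2, 1 was apart. The retinal gene Crb1 ranged from 1.01 to 1.99 CPM against 1.49 to 3.33 CPM. The insulin-degrading enzyme gene Ide ranged from 72.6 to 111 CPM against 66.3 to 104 CPM. The upper Ide value of each set was that of GFP replicate 1. Gabra2, another of the 9, had 1880 counts in Pogz-set GFP replicate 1 and 2505 in replicate 2. These libraries held 27501722 and 69002749 counts. A count of genes apart between the sets does not show whether mice of 1 set were alike in these genes. Dock2, a guanine exchange factor gene of leukocytes, had the smallest p of the 9 (0.70, SE 0.28; edgeR adjusted p = 0.417).

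Rnps1 (chromosome 17, 24414646 to 24425898, plus strand) went the other way. It was at 62.9 and 58.7 CPM in GFP mice of the Adnp set and 55.2 and 55.3 CPM in shAdnp mice, against 39.4 and 36.2 CPM in GFP mice of the Pogz set and 33.8 and 31.4 CPM in shPogz mice. The Adnp-set mean was 1.65 times the Pogz-set mean (58.0 ± 3.63 and 35.2 ± 3.41 CPM; SD, n = 4 each), and the fitted difference was -0.72 (SE 0.07). In both sets the 2 hairpin libraries lay below the 2 GFP libraries. Of the 10 genes, Rnps1 alone had this order in both sets, while H2-T10, H2-Q10 and Gm6034 had the reverse order in both. The share of all genes with either order in both sets was not counted. The responses of Rnps1 are given with those of the others further on.

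Genes of the proteins that work with RNPS1 were counted in the same way. Of 23 other genes of the exon junction complex and its associated ASAP and PSAP complexes, 0 were apart (6.04% of all genes were). Of these, 12 lay above 0 and 11 below, and the median difference was 0.00. Without Adnp-set GFP replicate 1, 2 were apart, and without shAdnp replicate 2 or Pogz-set GFP replicate 2, 1 was. Differences in the list ran from -0.16 to 0.13. Acin1, which encodes the acinus protein that binds RNPS1 in ASAP, ranged from 85.8 to 95.9 CPM in the Adnp set and from 93.8 to 111 CPM in the Pogz set. Pnn, whose product pinin binds RNPS1 in PSAP, ranged from 67.1 to 73.2 CPM and from 66.1 to 81.0 CPM.

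Both ribosomal protein genes were lower in the Pogz set. Rps2 (chromosome 17, 24718121 to 24721927, plus strand) was at 64.9 and 64.0 CPM in GFP mice of the Adnp set and 77.8 and 67.6 CPM in shAdnp mice. The Pogz-set values were 35.7 and 34.1 CPM in the GFP controls and 35.7 and 38.2 CPM in shPogz. The Adnp-set mean was 1.91 times the Pogz-set mean, with a fitted difference of -0.93 (SE 0.08). Rps18 (chromosome 17, 33951998 to 33955665, minus strand) was at 43.8 and 45.1 CPM in GFP mice of the Adnp set and 52.5 and 46.1 CPM in shAdnp mice. In the Pogz set it was at 25.8 and 24.8 CPM in the GFP mice and 25.01 and 31.6 CPM in shPogz mice. The ratio of means was 1.75 and the fitted difference was -0.81 (SE 0.09).

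Most genes of the other cytosolic ribosomal proteins lay on the other side of 0. Of 76 others tested, 57 lay above 0 and 19 below. By the choosing rule 3 were apart (6.04% of all genes were), and all 3 were higher in the Pogz set, among them Rps12 by 0.25 and Rpl27 by 0.24 (log2). Without shAdnp replicate 1, 13 of the 76 were apart and 0 of them were lower, and without Pogz-set GFP replicate 2, 5 were apart. Over all genes the counts apart were then 1703 and 1699, against 1052 with all 8 libraries. Without replicate 2 of shAdnp or of shPogz, 4 were apart, of which 1 was lower. The median of the 76 was 0.07, their lowest value was -0.57 (Rpl34, at 0.39 to 0.96 CPM in all libraries) and their highest was 0.30 (Rpl10a). The large subunit gene with the smallest p was Rpl37 (0.21, SE 0.09; edgeR adjusted p = 0.417). Rps2 and Rps18 lie on chromosome 17, and so do 4 of the others, Rpl10a, Rpl36, Rps10 and Rps28. Those 4 were not apart, with differences from -0.15 to 0.30. Rps28 lies near Rps18, at 33823036 to 33824562, and ranged from 28.6 to 35.3 CPM in the Adnp set against 31.5 to 42.1 CPM in the Pogz set. Rps2 and Rps18 transcripts have many processed copies in the genome. Of the distinct 50-base stretches of their annotated transcripts (GENCODE M21), 43% for Rps2 and 23.7% for Rps18 occurred in transcripts of other genes. The leading partners were Rps2-ps10 and Gm11361. The same share was 10.8% for Rnps1, all of it with Gm9825. How reads that match several places were counted is not stated in the labels, so the levels of these genes are uncertain to that extent.

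**Figure D3:**
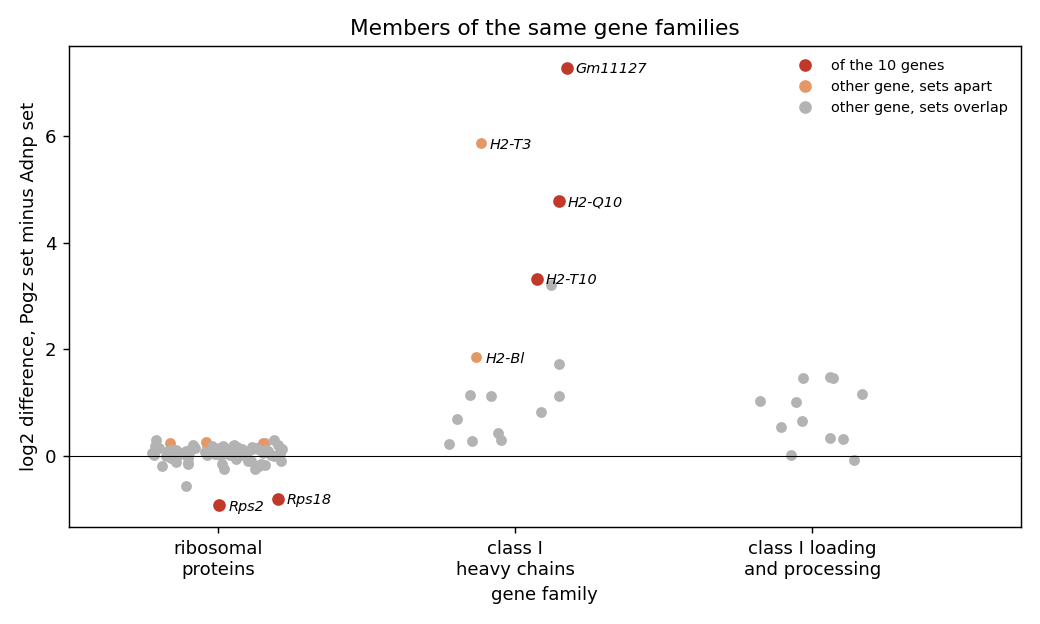
Log2 difference between the sets, fitted by edgeR, for each tested gene of 3 families, with points spread sideways for visibility. Rps2 and Rps18 (red) lie below the other ribosomal protein genes, whose lowest value was -0.57, and the class I heavy chains spread upward to 7.29 for Gm11127.

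The class I genes held the widest gaps. The stretch upstream of a class I start that answers to NF-kB and interferon is shown first, for H2-Q10, Gm11127, H2-T3, H2-K1 and H2-D1. H2-Q10 and Gm11127 were chosen because their sets were apart, so no contrast between these genes is drawn. The part of these letters in their levels was not tested, and the stretch of Gm6034 is not shown. The sequence table, from RefSeq with build GRCm38.p6, held an entry for 5 of the 10 genes (Rps2, Rps18, H2-Q10, Gm11127 and Gm6034). A pair of motifs was read from the H2-K1 window and searched on each gene's own strand. They were GGGGATTCCCC, the class I enhancer A, and AGTTTCACTT, the core of the neighbouring interferon response element, and they do not overlap each other. Below are 29 bases of each gene, 5′ to 3′ on its own strand, ending at the best match to the second motif. Capitals mark letters that equal a motif.
H2-Q10: GaGGAcTCCCCatctccccAGTTTCACTT
H2-K1: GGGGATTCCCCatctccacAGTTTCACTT
H2-D1: GGGGATTCCCCatctcctcAGTTTCACTT
H2-T3: ttgggctgtacagaactatAGTTTCACTT
Gm11127: tgagggcagggcttgagttgGTTTCACaT

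The H2-Q10 stretch is chr17:35469913-35469941 (plus strand) and lies 176 to 148 bases before the annotated start. Those of H2-K1, H2-D1, H2-T3 and Gm11127 are chr17:34000430-34000458 (minus), chr17:35262923-35262951 (plus), chr17:36190270-36190298 (minus) and chr17:36058527-36058555 (minus). H2-K1 carries both motifs in full because they were read from it, and H2-D1 carries both as well. H2-Q10 differs from the first motif by G2A and T6C, counted from 1 at the motif's 5′ end, and holds the second in full. H2-T3 holds the second motif, and its closest match to the first has 4 mismatches. Gm11127 differs from the second by A1G and T9A. Counted on either strand, the first motif occurs in full in 0.0304% of 32851 upstream windows of 250 bases. With up to 2 mismatches it occurs in 5.81%, and the second motif occurs in full in 0.128%. The share of windows with the second motif at 2 mismatches, as in Gm11127, was not counted. These matches are letters in the reference genome and not measured binding. The whole H2-Q10 window, chr17:35469839-35470088, reads as follows with the same capitals.
H2-Q10: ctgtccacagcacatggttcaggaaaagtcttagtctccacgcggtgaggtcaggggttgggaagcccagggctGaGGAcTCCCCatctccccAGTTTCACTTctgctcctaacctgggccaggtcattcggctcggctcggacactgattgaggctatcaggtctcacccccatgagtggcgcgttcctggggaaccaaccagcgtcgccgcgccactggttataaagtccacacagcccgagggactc

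H2-Q10 (chromosome 17, 35470089 to 35474563, plus strand), known as a secreted class I molecule made in liver, was close to the detection limit in the Adnp set. It had 4 and 5 counts in the GFP controls and 5 and 13 in shAdnp, or 0.065, 0.080, 0.087 and 0.234 CPM. The Pogz set had 52 and 153 counts in the GFP controls and 139 and 229 in shPogz, or 1.84, 2.17, 3.25 and 6.00 CPM. Summed over libraries and divided by the summed scaled library sizes, the ratio of the sets was 28.0 (95% interval 19.1 to 42.9, exact binomial, counting error only). This interval leaves out the spread between mice and the choice of the gene on these counts, so it is no test. The liver genes Alb, Fgb and Serpina1a were near 0 in all libraries, with at most 2, 0 and 3 counts in any one. The other 2 of 5 liver markers passed the filter, lay above 0 in the Pogz set and overlapped between the sets. One was the lipoprotein gene Apoa1, at 9 to 31 counts (1.05, SE 0.45; edgeR adjusted p = 0.413). The part of liver transcripts in the level of H2-Q10 was not tested.

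H2-T10 (chromosome 17, 36115871 to 36121444, minus strand), annotated by RefSeq as a transcribed pseudogene, was at 0.74 and 1.86 CPM in GFP mice of the Adnp set and 2.26 and 3.71 CPM in shAdnp mice. The Pogz set was at 16.9 and 18.3 CPM in the GFP mice and 18.6 and 25.6 CPM in shPogz mice. The ratio of set means was 9.27, the second widest gap of all tested genes was this one (2.05), and the fitted difference was 3.32 (SE 0.30). It was 3.76 (SE 0.44) between the GFP controls and 2.89 (SE 0.42) between the hairpin groups.

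Gm11127, annotated as a class I histocompatibility gene (chromosome 17, 36055816 to 36058371, minus strand), was nearly silent in the Adnp set. It had 4 and 0 counts in the GFP controls and 1 and 2 in shAdnp, against 77 and 336 in GFP mice of the Pogz set and 185 and 330 in shPogz mice. The ratio of the summed counts, scaled for library size, was 175 (95% interval 84.6 to 437, exact binomial, counting error only). Gm6034 (chromosome 17, 36042961 to 36058645, plus strand) contains the whole of Gm11127 on the opposite strand. It had 1 and 7 counts in GFP mice of the Adnp set and 8 and 8 in shAdnp mice, against 25 and 62 in GFP mice of the Pogz set and 42 and 67 in shPogz mice. Its ratio was 10.8 (95% interval 7.04 to 17.2, of the same kind). Both intervals leave out the spread between mice, 2.72 to 8.64 CPM for Gm11127 in the Pogz set. Both genes were chosen on these counts, so neither interval tests the difference. The libraries were made with a strand-marking kit, but the strand setting of the counting is not stated in the labels, so the 2 overlapping genes cannot be read as separate measurements.

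C4a (chromosome 17, 34809092 to 34823460, minus strand; a transcribed pseudogene in RefSeq) was at 1.65 and 2.48 CPM in GFP mice of the Adnp set and 2.96 and 3.92 CPM in shAdnp mice. In the Pogz set it was at 6.72 and 11.1 CPM in the GFP mice and 8.73 and 16.0 CPM in shPogz mice. The ratio of means was 3.86 and the fitted difference was 1.98 (SE 0.27). C4b, its neighbour, overlapped between the sets, at 25.5, 91.4, 268 and 198 CPM in the Adnp set and 147, 255, 267 and 513 CPM in the Pogz set. Of 19 other complement genes, 0 were apart (6.04% of all genes were), 17 lay above 0, and the median difference was 0.56. Without Pogz-set GFP replicate 1, 2 were apart, and without shAdnp replicate 2 or shPogz replicate 1, 1 was. Cfp, which encodes properdin, had the smallest p of the 19 (0.54, SE 0.18; edgeR adjusted p = 0.383).

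Copies bear on these levels as well. The share of 50-base stretches found in transcripts of other genes was 78.3% for Gm11127, 51.2% for Gm6034, 50.4% for H2-T10, 30.6% for C4a and 19.1% for H2-Q10. The partner of C4a was C4b, that of H2-Q10 was led by H2-Q7 and that of H2-T10 by H2-T22. H2-Q6, H2-Q7 and H2-T9 were listed at 0 counts in all 8 libraries and H2-T22 at 2 to 10. By contrast the share was 1.66% for Wdfy1 and 0.199% for Nnt. Wdfy1 overlaps Mrpl44, a mitochondrial ribosomal gene on the other strand, which was at 20.1 to 26.0 CPM in the Adnp set and 21.2 to 23.2 CPM in the Pogz set.

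The rest of the class I pathway was read beside these genes. Of 25 other genes for class I heavy chains and their loading, 2 were apart (6.04% of all genes were). They were H2-T3 and H2-Bl, both higher in the Pogz set and both in the T region. H2-T3, the heavy chain gene of the thymus leukemia antigen, had 0, 0, 2 and 0 counts in the Adnp set and 12, 31, 13 and 17 in the Pogz set. The other 23 overlapped, although 24 of the 25 lay above 0 with a median of 1.01 (all tested genes, -0.00), and 0 of 25 passed edgeR's test between the sets (5 at an unadjusted p under 0.05, which 11.7% of all genes had, and 2 by DESeq2, which called 1.53%). Without Pogz-set GFP replicate 1, 7 of the 25 were apart (1998 of all genes were, against 1052 with all 8 libraries). H2-K1 was at 24.4, 129, 226 and 288 CPM in the Adnp set and at 130, 264, 291 and 645 CPM in the Pogz set. H2-D1 was at 15.1, 52.1, 105 and 99.4 CPM and at 64.8, 114, 127 and 242 CPM. B2m, which encodes beta-2 microglobulin, overlapped too, at 80.9 to 415 CPM and 264 to 995 CPM. The classical genes varied more within the Adnp set than between the set medians. H2-T10 and H2-Q10 were chosen because their sets do not overlap, so no contrast with the classical genes is drawn from that.

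H2-Q10, H2-T10 and C4a were also expressed as a share of H2-K1 in the same library. These shares hold the CPM by which the genes were chosen, so separation on this scale is no independent support. H2-Q10 was 0.0384% to 0.268% of the H2-K1 level in the Adnp set and 0.823% to 1.42% in the Pogz set. H2-T10 was 1.00% to 3.01% of H2-K1 in the Adnp set and 3.97% to 13.03% in the Pogz set. C4a overlapped on this scale, at 1.31% to 6.76% in the Adnp set and 2.47% to 5.18% in the Pogz set. H2-D1, for comparison, was 34.5% to 61.6% and 37.6% to 49.9% of H2-K1.

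Libraries of 1 group also differed in immune transcripts. In 4 of 4 groups replicate 2 had more H2-K1 than replicate 1, and more of the leukocyte gene Ptprc. H2-T10, H2-Q10 and C4a were higher in the library with more H2-K1 in 4 of 4 groups, as were 6.84% of all tested genes. For Wdfy1, Gm11127 and Gm6034 this held in 3 of 4 groups (31.7% of all genes had it in 3 or 4), for Nnt and Rps18 in 2, and for Rnps1 and Rps2 in 1. Ptprc, which encodes the common leukocyte antigen, was at 9.29, 23.3, 44.5 and 55.7 CPM in the Adnp set and at 29.7, 55.4, 59.9 and 134 CPM in the Pogz set. The summed level of 5 blood leukocyte markers ran from 9.63 to 67.5 CPM and from 32.7 to 157 CPM, and 1 of the 5, the B cell gene Ms4a1, was apart. A list of B cell genes, drawn up after the values had been seen, had 8 tested members, of which 6 were apart and higher in the Pogz set. Its summed level ran from 1.31 to 12.9 CPM in the Adnp set and from 12.1 to 20.8 CPM in the Pogz set. The 5 microglial markers summed to 260 to 592 CPM and 393 to 575 CPM. The part of these cells in the differences of H2-T10, H2-Q10, C4a, Gm11127 and Gm6034 was not tested.

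The choosing rule names no position, but it is met by 1052 genes, and how these 10 were taken from them is not stated, so where they lie is given as a description. Of the 10, 8 lie on chromosome 17, which holds 4.94% of the tested genes with a known position (857 of 17337), and all 8 fall within 11.7 Mb, from 24414646 to 36121444. Rnps1 and Rps2 form one group near its start, and Rps18, C4a, H2-Q10, Gm6034, Gm11127 and H2-T10 form the other, within the histocompatibility complex and at its edge. Neighbours within 500 kb were then examined. Around the second group 16 of 138 other tested genes were apart (11.6%; 8 higher, 8 lower), and 29 had an unadjusted p under 0.05 between the sets (21.01%, against 11.7% of all genes). The count apart was 28 without shAdnp replicate 2 and 27 without Pogz-set GFP replicate 1. Over all genes it was then 2570 and 1998, against 1052 with all 8 libraries. Of the 23 other genes with a gap at least as wide as that of Nnt, 6 lie in this region (H2-Ob, C920025E04Rik, H2-T3, AA388235, Msh5 and H2-Eb2). H2-Ob and H2-Eb2, class II genes, were higher in the Pogz set, H2-Ob at 0.46 to 2.77 CPM against 5.66 to 12.5 CPM. AA388235 was lower, at 3.53 to 4.66 CPM against 1.73 to 2.41 CPM.

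Around Rnps1 and Rps2, 11 of 57 neighbours were apart (19.3%; 4 higher, 7 lower), each by a gap narrower than that of Nnt. The largest absolute differences were those of Hs3st6, Rnf151 and Npw, all under 0.6 CPM in every library. Between the groups lay 164 further tested genes, of which 15 were apart (9.15%). The shares were 6.99% of 143 genes before the first group, 5.76% of 347 after the second and 5.84% of 16478 on the other chromosomes. By edgeR, 0 of the neighbours of either group passed the test between the sets adjusted over all genes, which 0.0517% of all genes did, while DESeq2 called 1 of the 57 and 11 of the 138 (1.53% of all genes).

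**Figure D4:**
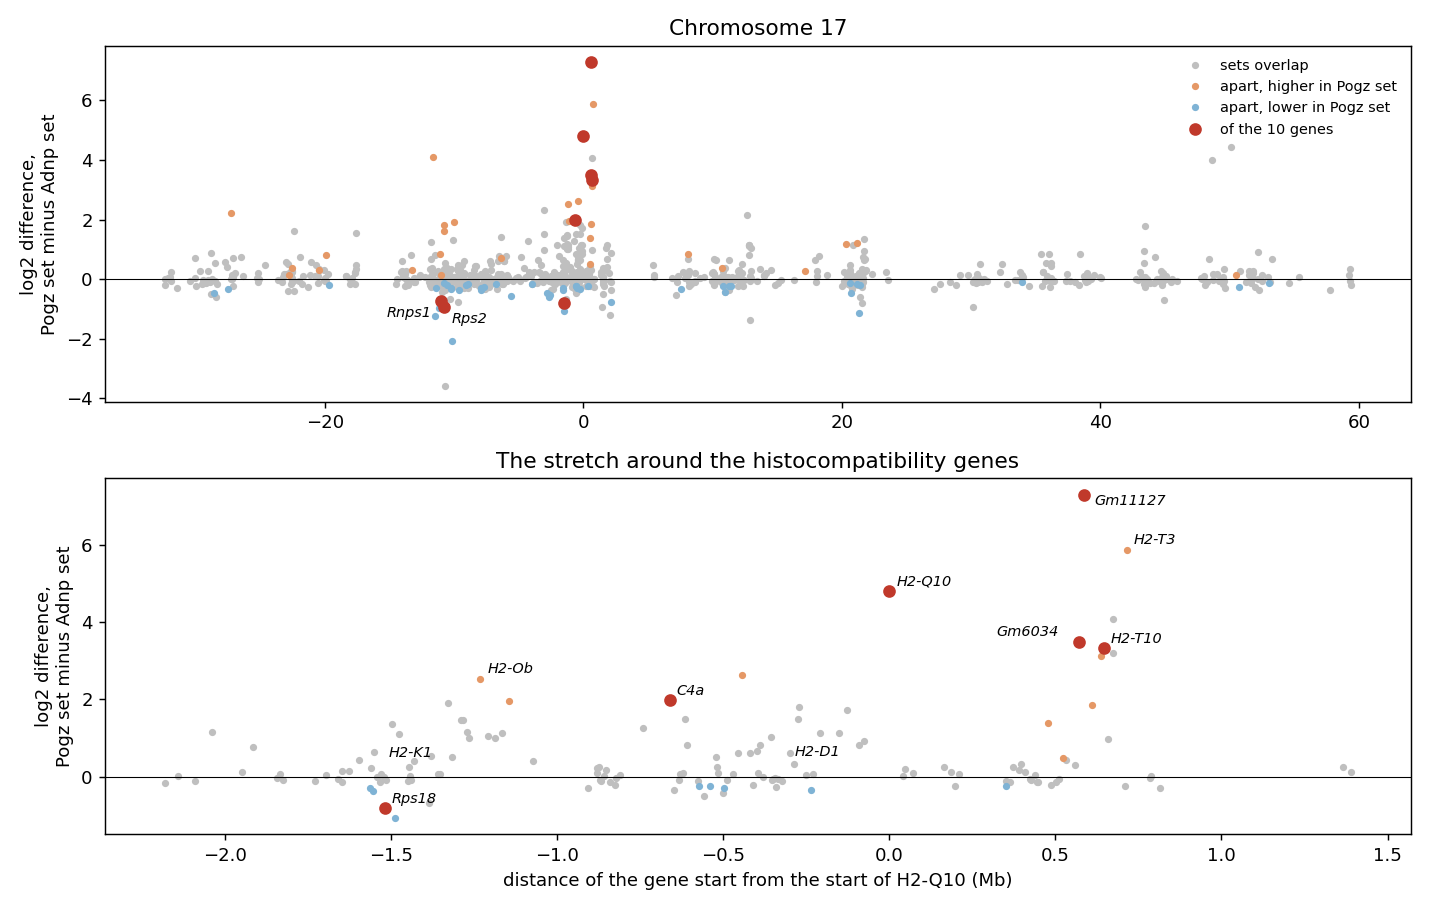
Log2 difference between the sets, fitted by edgeR, for every tested gene of chromosome 17 against the distance of its start from that of H2-Q10 in Mb, over the chromosome (top) and near the histocompatibility genes (bottom). Of the genes in red, 5 stand among the highest values near 0 Mb, and Rps18, Rnps1 and Rps2 lie below 0; separated neighbours appear on both sides of the zero line.

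Neighbours of Nnt and of Wdfy1 were counted in the same way (6.04% of all genes were apart). They are too few to compare the 2 regions. Of 9 tested genes within 500 kb of Nnt, 3 were apart, 3110070M22Rik, Gm7120 and the chemokine gene Ccl28, and all 3 were lower in the Pogz set while Nnt was higher. Without shAdnp replicate 2, 5 of the 9 were apart (2570 of all genes were, against 1052 with all 8 libraries). Gm7120 ranged from 10.8 to 13.3 CPM in the Adnp set and from 6.79 to 10.1 CPM in the Pogz set (-0.44, SE 0.14; edgeR adjusted p = 0.367). Near Wdfy1, 1 of 6 genes was apart, Ap1s3, with a gap of 0.0022, and 0 of 6 had an unadjusted p under 0.05. Without replicate 2 of shAdnp or of shPogz, 2 of the 6 were apart.

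The genes most like Wdfy1 across the 8 libraries, by Pearson's r of log2(CPM + 0.5), were H2-T3 (0.99), Gm9054 (0.97) and Sat2 (0.96). For Nnt they were Saa3 (0.99), the B cell receptor gene Cd79a (0.97) and Mthfd1l (0.97), a mitochondrial folate enzyme gene. All 6 were themselves apart between the sets, and the 8 points share that step, so these values describe one pattern. Sat2, a thialysine acetyltransferase gene, was at 5.603 to 6.25 CPM against 6.85 to 7.65 CPM. Saa3, an acute-phase gene, had the widest gap outside the 10 (1.01), at 0 to 0.243 CPM in the Adnp set and 0.995 to 2.999 CPM in the Pogz set. Among the next in width were H2-Ob, the B cell receptor gene Cd79b, 5930438M14Rik (lower in the Pogz set), Fcrla, Irf4, Cmah, Ly6c2 and C920025E04Rik.

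The experiment was built to compare each hairpin group with its own GFP controls. The choosing rule did not use this contrast, but it used the CPM of all 8 libraries. It thereby favours genes with little spread within a set, so a low number of calls among the 10 carries little weight. In edgeR's test 0 of the 10 genes passed for shAdnp, for shPogz or for the difference between the responses, where 0% of all genes passed each. DESeq2 called 420 genes (2.41%) for shAdnp and 100 (0.574%) for shPogz, among them 1 of the 10, H2-T10 in shAdnp, and limma-voom called 0 of the 10. At an unadjusted p under 0.05, 1 of the 10 was higher in shAdnp (6.67% of all genes were) and 1 was higher in shPogz (4.05%).

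The first was H2-T10, at 1.19 on the log2 scale in shAdnp (SE 0.43; edgeR adjusted p = 0.493; by DESeq2 1.20, adjusted p = 0.0299). Its value was 0.69 without GFP replicate 1 of that set and 2.01 without GFP replicate 2. In shPogz it was 0.33 (SE 0.38), and the difference between the responses did not pass (-0.87, SE 0.57; edgeR adjusted p = 0.978). The second was H2-Q10, at 1.20 in shPogz (SE 0.42; edgeR adjusted p = 0.667) and 0.69 without shPogz replicate 2. In shAdnp its value was 1.11 (SE 0.65) on 4 to 13 counts. It was 0.26 with shAdnp replicate 2 left out and 1.67 with replicate 1 left out.

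The responses of Wdfy1, Nnt and the 3 lower genes were small beside their differences between the sets. Choosing genes whose sets do not overlap favours this, so it is a description only. Wdfy1 had 0.06 (SE 0.15) in shAdnp and 0.06 (SE 0.15) in shPogz, and Nnt 0.02 (SE 0.14) and -0.13 (SE 0.14). Rnps1 had -0.14 (SE 0.10) and -0.21 (SE 0.10), with adjusted p of 0.79 and 0.667 by edgeR. Rps2 had 0.17 (SE 0.11) and 0.08 (SE 0.11), and Rps18 0.15 (SE 0.13) and 0.16 (SE 0.13). C4a had 0.73 (SE 0.38) in shAdnp and 0.46 (SE 0.36) in shPogz, Gm6034 1.11 (SE 0.79) and 0.63 (SE 0.57), and Gm11127 -0.26 (SE 1.36) and 0.77 (SE 0.50). The value of Gm6034 in shAdnp was 0.35 without GFP replicate 1 of that set and 2.93 without GFP replicate 2, and in shPogz 0.15 without shPogz replicate 2 and 1.03 without shPogz replicate 1. Counted by order alone, both shAdnp libraries lay above both GFP libraries in 6 of the 10 (20.4% of all genes) and below in 1 (21%). Both shPogz libraries lay above in 3 (19%) and below in 1 (21.3%). With 2 libraries a group, these standard errors limit what could be detected, most of all for Gm11127 and Gm6034.

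**Figure D5:**
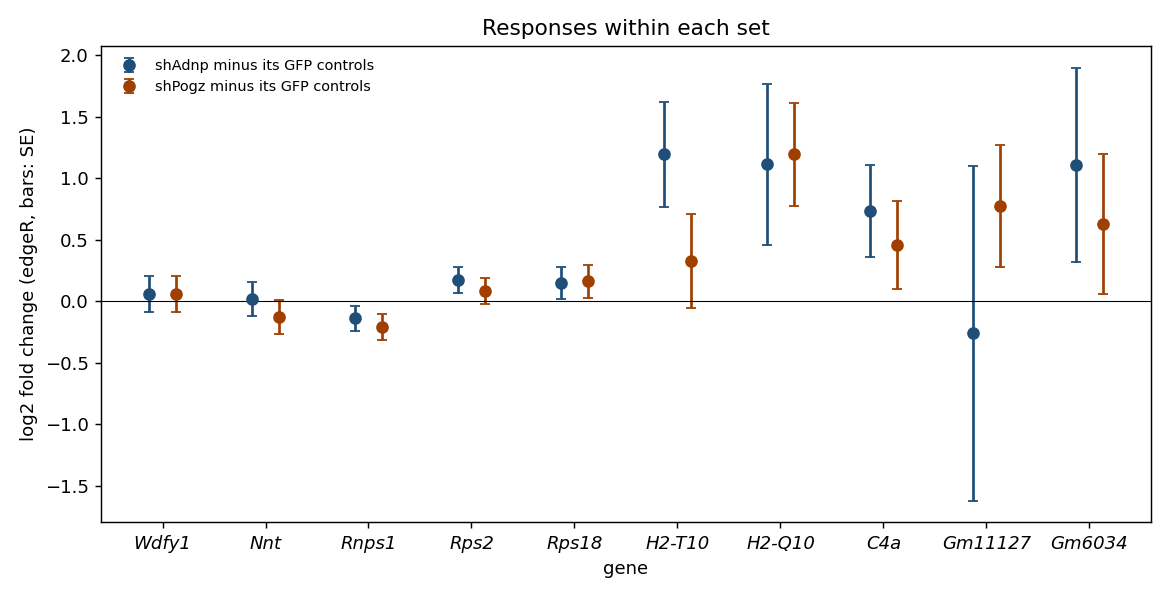
Log2 fold change of each hairpin group against its own GFP controls for the 10 genes, fitted by edgeR, with bars of 1 SE. The 5 genes on the left lie between -0.21 and 0.17 in both sets, and the 5 on the right, C4a and the genes of the class I region, have wider bars.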

How the data were processed

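RNA-seq counts per gene symbol were analysed for 8 libraries, 2 in each of 4 groups assigned from the titles. The deposited values are raw counts made by the authors with STAR, featureCounts and DESeq2 on build mm10, per the submitters' processing notes; the labels' protocols instead name TopHat2 after trimming by Cutadapt. Versions, strand setting and the handling of reads with several matches were not found there. Date-like identifiers (25) and blank ones (2), with 0.306% to 0.337% of counts, were left out. edgeR 4.0.16 in R 4.3.3 was used with TMM scaling, filterByExpr at a minimum count of 10 and a robust quasi-likelihood fit with 1 mean per group (4 residual degrees of freedom), adjusted by Benjamini-Hochberg at 0.05 over 17415 genes. The fit was tested on simulated data. Since a group has 2 libraries, the spread behind each p-value is pooled over genes and groups. CPM values are TMM-scaled. No 2 libraries were alike within counting noise. Positions and upstream sequences are from RefSeq GRCm38.p6, the assembly of mm10. Alternatives were DESeq2 1.42.0, limma-voom 3.58.1, other scalings and filters, the 4 libraries of a set alone, a replicate block and each library left out. The 10 genes and the lists were chosen with earlier results of these data known. Beside the 10, the genes named were the 10 others with the widest gap, the 3 most like Wdfy1 and Nnt, up to 3 neighbours per region, and the members of each list with the smallest p. Genes named outside this rule (H2-K1, H2-D1, B2m, C4b, Tlr3, Acin1, Pnn, Rps28, Ptprc, Mrpl44, Crb1, Ide and others of the lists) were chosen after their values were seen. A few of the single genes are not reported here. Exact intervals cover counting error only, on counts pooled over the GFP and hairpin libraries of a set, and test no difference.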

Additional observations from a re-analysis of the deposited data

How the results depend on the processing

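The 10 genes were apart under each of 13 alternatives and 0 of 150 recomputed set differences changed sign, but the choice of the genes on these libraries fixes this, and it says nothing about stability; 6 of the values moved by more than the spread between replicates. With library totals alone the median of all genes rose by 0.10 (log2). Counts of genes passing depended on the tool: DESeq2 gave 420 for shAdnp, 100 for shPogz, 2 for the difference between the responses and 266 between the sets, where edgeR gave 0, 0, 0 and 9. Without a low-count filter edgeR gave 14 between the sets. Leaving out 1 library gave 0 to 8 for shAdnp, 0 to 153 for shPogz, 0 to 4 for the difference, 3 to 95 between the sets and 1325 to 2570 genes apart (the last chosen after seeing the data). The replicate block gave 144, 26 and 140 for shAdnp, shPogz and the sets. Deviations of samples with the same number correlated at -0.079 over all genes in the Adnp set and 0.111 in the Pogz set. Replicate 2 had more H2-K1 and Ptprc in 4 of 4 groups. Whether samples with the same number share more than the number was not tested, and a correlation over all genes cannot decide it. Within the sets, Gm11127 reversed to 0.51 in limma-voom, and with 1 library left out ran from -1.23 to 3.56 in shAdnp. Likewise in shAdnp Nnt ran from -0.085 to 0.14 and Wdfy1 from -0.038 to 0.18. In shPogz Nnt ran from -0.24 to 0.058, Wdfy1 from -0.18 to 0.30, Rps18 from -0.017 to 0.36, H2-T10 from 0.076 to 0.58 and C4a from -0.041 to 0.92. In shAdnp C4a ran from 0.49 to 1.06. The cause was not tested. Depth limits Gm11127, Gm6034 and H2-Q10, with 0 to 13 counts per Adnp-set library.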
